A study of Bos taurus with 3 samples.

Results

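Splicing factors and the kinases that phosphorylate them were examined in BFF116 cells, fibroblasts of a bovine fetus whose nuclei are transferred into oocytes to make cloned embryos. The members were the genes whose symbol in the deposited count table names an SR protein or TRA2 protein, an hnRNP protein, a protein of the spliceosomal snRNPs or the SF3A, SF3B, U2AF and PRPF factors, 5 RBM proteins, an MBNL, PTBP or SRRM protein, or a CLK or SRPK kinase. This gave 90 of the 31903 listed genes. Each of the 3 libraries, labelled biological replicates 1 to 3, came from total RNA of 70000 cells that had been starved of serum for 48 h to synchronize the cell cycle. The series is described as this 1 group, with no further treatment, and unstarved cells were not analysed here. Separate cultures or animals are not stated for the replicates, so their spread may in part be technical.

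Introns are removed from messenger RNA precursors by the spliceosome, which is assembled from small nuclear ribonucleoproteins (snRNPs). U1 snRNP binds the donor splice site, U2AF and U2 snRNP bind the acceptor site and the branch point, and the U4/U6.U5 tri-snRNP brings in the catalytic centre. Which exons are kept depends on RNA-binding proteins, among them the SR proteins, rich in arginine and serine, and the hnRNP proteins. SRPK kinases, mainly in the cytoplasm, and CLK kinases, in the nucleus, phosphorylate the arginine and serine stretches of SR proteins and so control where these proteins are and how active they are.

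The libraries held 8608350, 4842331 and 7122651 gene reads (replicates 1 to 3). Levels are given as CPM, counts per 1000000 reads of the effective library size, which includes TMM scaling factors. CPM was not divided by transcript length, so the number of reads of 2 genes also carries their lengths, and an order of genes given here is an order of reads. Where a gene had 0 reads, up to 3 could have been missed by counting error alone, which is 0.356, 0.605 and 0.422 CPM in the 3 libraries. In every library all 10 fibroblast markers reached 1 CPM, against 0 of 6 epithelial, 2 of 4 endothelial, 2 of 6 leukocyte and 3 of 6 neural markers with a row in the table. Summed over their lists, fibroblast markers reached 104799 to 116097 CPM per library, and the other 4 lists 1.07 to 4.23, 5.64 to 12.2, 4.03 to 9.01 and 16.5 to 23.4 CPM. The endothelial markers that reached 1 CPM were TEK and PECAM1 (means of 5.93 and 2.65 CPM), and the leukocyte markers CD68 and LYZ (3.42 and 2.77). The neural ones were STMN2, MAP2 and TUBB3 (10.6, 5.70 and 2.91 CPM). EPCAM, CLDN4, KDR, PTPRC, CD14 and NEFL were at 0 reads in all libraries.

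Nearly the whole splicing machinery covered by the symbols was transcribed in the starved donor cells. Of the 90 members, 88 were measured, meaning 1 CPM or more in every library, and the background over all listed genes was 34.6%. The exceptions were SRPK3, a kinase known from skeletal muscle, with 7, 0 and 1 reads, and MBNL3, the third muscleblind gene, with 0, 0 and 1 reads. Together the members took 1.43%, 1.41% and 1.33% of gene reads in replicates 1 to 3. Their median was 78.2 CPM, and 42 of the 88 measured members reached 100 CPM on average, where the background over all measured genes was 15.4%. Members ran from SF3A2 at 3.25 ± 1.21 CPM to SF3B1 at 919 ± 223 CPM (SD, n = 3) among those measured. The 10 most read members held 46.4% ± 0.420 (SD, n = 3) of the members' reads. They were SF3B1, SRRM2, RBM39 and 7 hnRNP genes.

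**Figure D1:**
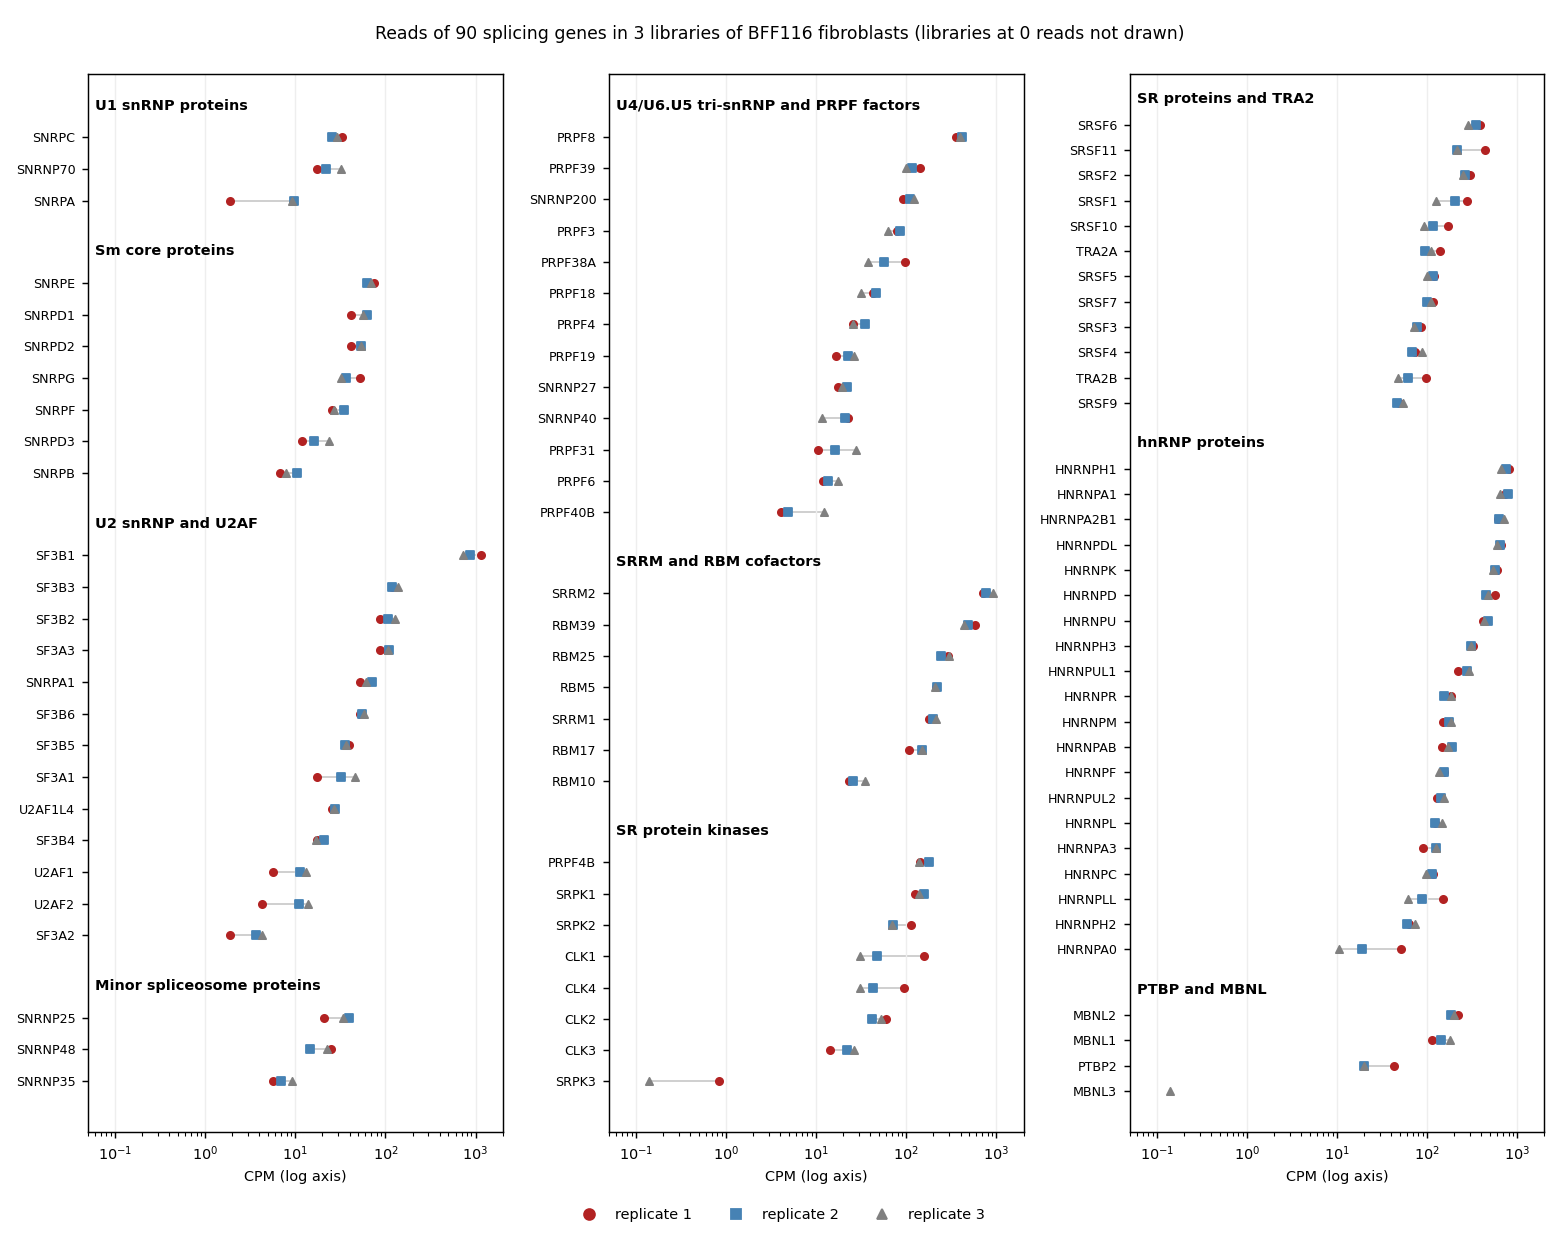
CPM (log axis) of each of the 90 genes in replicates 1 to 3, sorted by mean within role, with a grey line from the lowest to the highest library. Most genes have their 3 points close together, while CLK1, CLK4, HNRNPA0, SNRPA, U2AF2 and PRPF40B are drawn apart, and SRPK3 and MBNL3 lie below 1 CPM.

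Proteins of U1 snRNP and of the Sm ring, which encircles the snRNAs, gave modest read numbers. SNRPC of U1 stood at 32.7, 25.6 and 28.8 CPM in replicates 1 to 3, and SNRNP70, which contacts the U1 RNA, at 17.3, 21.8 and 32.2. SNRPA, the other RNA-binding U1 protein, had only 16, 48 and 65 reads, or 1.90, 9.67 and 9.15 CPM. Replicate 1 was thus the low library for SNRPA, 5.09-fold under the highest. In bulk libraries such as these, fewer cells of a kind and less RNA per cell cannot be told apart. The 7 Sm genes ran from SNRPB (8.38 ± 1.90 CPM, n = 3) to SNRPE (68.1 ± 6.18 CPM), with SNRPD1 at 53.1 ± 10.7 and SNRPD2 at 49.5 ± 6.80. SNRPG (40.3 ± 10.7), SNRPF (28.9 ± 4.68) and SNRPD3 (17.2 ± 6.09) made up the rest of the ring. In 5 of the 7 Sm genes the lowest library was replicate 1, and the background share of all tested genes with their lowest library there was 40.3%.

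Among the U2 factors SF3B1 had by far the most reads. SF3B1, the SF3B subunit that clamps the branch point helix, stood at 1163, 870.1 and 724 CPM, with replicate 1 highest and replicate 3 lowest. SF3B3 (118, 117 and 138 CPM), a scaffold of the same complex, had about equal reads in the 3 libraries. SF3B2 (107 ± 19.9), SF3A3 (100.6 ± 11.1), SNRPA1 (61.3 ± 9.02), SF3B6 (55.4 ± 2.97), SF3B5 (37.1 ± 2.40) and SF3B4 (18.4 ± 2.04) completed the middle of the group. SF3A1 had 17.6, 32.4 and 46.3 CPM, and SF3A2 1.90, 3.63 and 4.22 CPM. The dimer that reads the acceptor site had few reads. Its large subunit U2AF2 stood at 4.28, 11.1 and 13.8 CPM and its small subunit U2AF1 at 5.70, 11.3 and 13.2 CPM. Replicate 1 was the lowest library for both, and the 2 subunits stayed close to each other within each library. The U2AF1-like gene U2AF1L4 had 26.6 ± 1.18 CPM and overlaps PSENEN in the RefSeq gene table. Reads that fit several genes are not in the gene counts, so its level is uncertain. The same holds for all 24 of the 90 members that overlap another gene there, among them SNRPA, PRPF31, CLK4, HNRNPLL and PTBP2. Of the 13 U2 and U2AF genes, 9 were lowest in replicate 1, against the background of 40.3%.

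The tri-snRNP and PRPF genes were led by PRPF8, the scaffold of the catalytic centre, at 392 ± 28.9 CPM (SD, n = 3). PRPF39, a U1-associated factor, followed at 119 ± 21.4, and SNRNP200, the helicase that unwinds U4 from U6, at 107 ± 14.8. PRPF3 stood at 75.5 ± 11.6, PRPF38A at 63.6 ± 30.9 and PRPF18 at 40.1 ± 7.48, while PRPF4, PRPF19, SNRNP27, SNRNP40, PRPF31 and PRPF6 lay between 14.4 and 28.6 CPM on average. PRPF40B was lowest, with 34, 24 and 87 reads, or 4.04, 4.84 and 12.2 CPM, so that replicate 3 stood above the others. Its mean of 7.04 CPM was 4.44 without replicate 3. PRPF38A went the other way, at 97.6, 56.0 and 37.3 CPM. Proteins of the minor spliceosome, which removes a rare class of introns, stood at 31.2 ± 9.77 (SNRNP25), 20.7 ± 5.32 (SNRNP48) and 7.28 ± 1.83 CPM (SNRNP35).

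All 12 genes of SR and TRA2 proteins were measured, and 10 of 12 had their highest level in replicate 1. SRSF6 stood at 388, 352 and 282 CPM in replicates 1 to 3 and SRSF2 at 299, 260.0 and 249.9 CPM. SRSF11 had 436, 214 and 215 CPM, with replicate 1 at 2.04-fold the lowest library. SRSF1, the founding member of the family, had 274, 206 and 126 CPM. The remaining SRSF genes were SRSF10 (127 ± 39.3, n = 3), SRSF5 (111 ± 10.3), SRSF7 (108 ± 8.11), SRSF3 (78.1 ± 7.89), SRSF4 (76.4 ± 9.33) and SRSF9 (49.7 ± 4.33). TRA2A and TRA2B, relatives of the SR proteins, stood at 138, 95.7 and 111 CPM and at 96.1, 60.9 and 47.7 CPM. SRSF4 and SRSF9 were the exceptions, with replicate 3 highest. Over all tested genes 39.3% were highest in replicate 1, and 53.0% of those at 100 CPM or more. All 12 SR genes were higher in replicate 1 than in replicate 2, and 10 of 12 were higher in replicate 1 than in replicate 3. The corresponding shares of all tested genes were 49.7% and 49.3%, and of those at 100 CPM or more 61.2% and 58.8%.

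The splicing coactivator SRRM2, a large scaffold of nuclear speckles, stood at 791 ± 102 CPM and SRRM1 at 196 ± 15.3 CPM (SD, n = 3). RBM39, which works with U2AF, stood at 503 ± 70.8, RBM25 at 276 ± 30.5, RBM5 at 215 ± 6.09, RBM17 at 136 ± 25.1 and RBM10 at 27.8 ± 6.21. In this group 0 of 7 genes differed 2-fold between libraries. The background was 24.6% of all tested genes and 8.72% of those at 100 CPM or more, so 0 of 7 does not set the group apart.

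The hnRNP genes held the largest number of reads of any role, 6289, 6220 and 5997 CPM in sum. HNRNPH1, a binder of G-rich RNA, stood at 809, 744 and 660.2 CPM, and HNRNPA1, a general repressor of exons, at 739, 792 and 651 CPM. HNRNPA2B1 followed at 606, 629 and 707 CPM. The libraries of these 3 genes lay within 1.23-fold of each other. HNRNPDL (634 ± 30.7, n = 3), HNRNPK (567 ± 33.1), HNRNPD (497 ± 60.7) and HNRNPU (441 ± 29.6), a nuclear scaffold protein, came next. The other genes with 100 CPM or more were HNRNPH3 (313 ± 12.2), HNRNPUL1 (263 ± 38.4), HNRNPR, HNRNPM, HNRNPAB, HNRNPF, HNRNPUL2, HNRNPL, HNRNPA3 and HNRNPC (108 ± 10.2). Below that were HNRNPLL (99.2 ± 44.7), HNRNPH2 (65.2 ± 6.47) and HNRNPA0 (26.8 ± 21.2). The median ratio of highest to lowest library was 1.21 over the 20 hnRNP genes, 1.34 over the 88 measured members, 1.54 over all tested genes and 1.31 over tested genes at 100 CPM or more. Processed copies are known for many hnRNP and Sm genes, and reads with several alignments, 7.52% to 7.99% of each library, are not in the gene counts, so these levels are uncertain.

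HNRNPA0 and HNRNPLL departed from the other hnRNP genes. HNRNPA0, which binds AU-rich RNA, had 50.8, 19.1 and 10.6 CPM, and HNRNPLL, a relative of HNRNPL that directs exon skipping in lymphocytes, 149, 87.1 and 61.9 CPM. Replicate 1 was the high library in both. HNRNPA0 overlaps KLHL3 in the RefSeq table, and KLHL3 had 20, 5 and 9 reads. Without replicate 1 the mean of HNRNPA0 was 14.8 CPM.

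Of the muscleblind genes MBNL2 had 217, 185 and 198 CPM and MBNL1 114, 141 and 177 CPM. MBNL2 summed to 4153 reads over the libraries against 1 read of MBNL3, a ratio of 4153 with an exact 95% interval of 745 to 164074. That interval holds counting error of the pooled reads only, without the spread between libraries. PTBP2, the member of the polypyrimidine tract binding family best known from neurons, had 42.4, 19.9 and 19.8 CPM. PTBP1 and PTBP3 were not analysed here, nor were PRPF38B, SNRPB2 and SRSF12.

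CLK1 had the widest range between libraries of the 7 measured kinase genes. It stood at 157 CPM in replicate 1, 47.4 in replicate 2 and 30.5 in replicate 3, from 1323, 235 and 217 reads. Replicate 1 was 3.32-fold above replicate 2 and 5.15-fold above replicate 3. CLK4, the closest relative of CLK1, had 94.9, 43.1 and 30.5 CPM and so was also highest in replicate 1, by 2.20-fold and 3.11-fold. CLK2 had 59.6, 41.9 and 52.3 CPM, and CLK3 14.4, 21.8 and 26.0 CPM. CLK3 was therefore lowest in the library where CLK1 and CLK4 were highest. Of all CLK reads CLK1 made up 48.2%, 30.7% and 21.9%, and CLK4 29.1%, 28.0% and 21.9%. The 4 CLK genes summed to 326, 154 and 139 CPM.

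SRPK1 had 124, 158 and 139 CPM, SRPK2 112, 71.5 and 69.7 CPM, and the sum with SRPK3 was 237, 230 and 209 CPM. SRPK2 was highest in replicate 1, SRPK1 was lowest there, and the SRPK sum differed by 1.13-fold between replicates 1 and 3. SRPK2 had 1794 reads in all against 8 of SRPK3, a ratio of 224 with an exact 95% interval of 114 to 520.2. The interval covers counting error of the pooled reads and not the spread between libraries. PRPF4B, a kinase of the tri-snRNP that resembles the CLK kinases, had 143, 177 and 137 CPM. No test of the CLK genes against the SRPK genes was made.

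**Figure D2:**
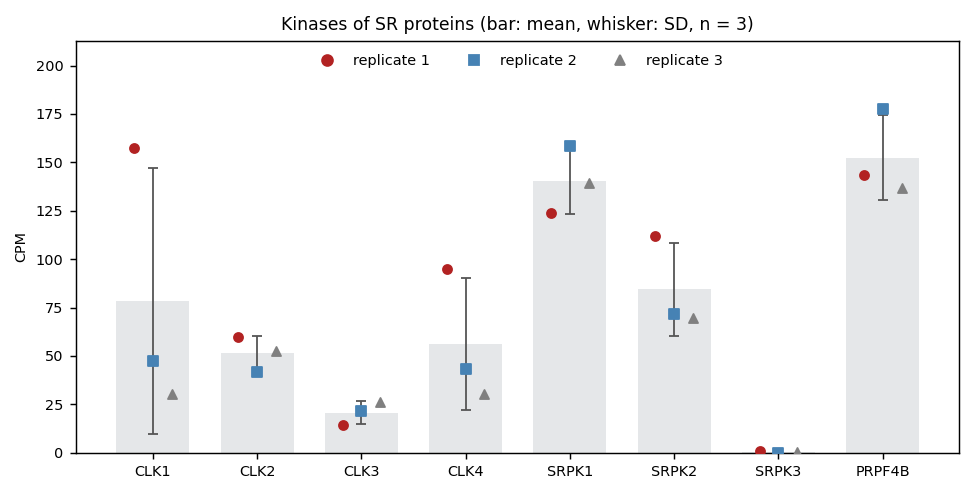
CPM of the 8 kinase genes in each library (points), with the mean (bar) and SD (whisker) of 3 libraries. CLK1 and CLK4 have replicate 1 at 157 and 94.9 CPM, above their other libraries, while SRPK1 and PRPF4B are highest in replicate 2.

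Whether a gene varied between replicates more than genes of its level was tested with a negative binomial fit in edgeR on the 10434 genes with 10 or more reads in every library. CLK1 was 1 of 2 genes that passed (adjusted p = 0.0106), the other being LOC101909968 at 127, 32.0 and 30.0 CPM, also highest in replicate 1. The background was 0.0192% of tested genes, and of the 88 members tested 1 passed. At an unadjusted p under 0.05 the background was 5.24%, and 7 members were there, namely CLK1, HNRNPA0, CLK4, SRSF11, PRPF38A, HNRNPLL and PTBP2. All 7 were highest in replicate 1, as were 39.3% of all tested genes. The share among all genes under 0.05 was not determined. At equal fold the Pearson statistic is larger for 1 high library than for 1 low library, so this shared direction is partly set by the test. Of the 7, 6 did not pass after adjustment, among them HNRNPA0 (edgeR, adjusted p = 0.127) and CLK4 (edgeR, adjusted p = 0.307). On simulated data of 3 replicates the test found 58 of 100 genes raised 4-fold and 4 of 100 raised 2-fold in 1 library. It made 4 false calls among 10232 unchanged genes. Each simulated gene had the dispersion of the trend, no gene was lowered, and the count filter was lower than in the real test. In that setting a 2-fold rise would mostly be missed, and the rates may differ in the real data. The call of CLK1 was lost with a common dispersion (adjusted p = 0.0764, edgeR), and with any library left out it did not pass (adjusted p from 0.602 to 1.00, edgeR).

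The mean of CLK1, 78.3 ± 68.8 CPM (SD, n = 3), was 38.9 without replicate 1, and that of CLK4, 56.2 ± 34.1, was 36.8. Replicate 1 was also the deepest library. Reads that the counting assigned to no gene made up 59.2%, 58.9% and 62.0% of the 3 libraries. Summed fibroblast markers were at 114270, 104799 and 116097 CPM, and the part of depth or of other cells in the CLK1 result was not tested. PPIL3, a cyclophilin that is the coding gene next to CLK1 in the RefSeq table, was looked at after the values of CLK1 were known. It had 27.3, 9.87 and 6.75 CPM (adjusted p = 0.369, edgeR). BZW1, on the other side of CLK1, had 428, 321 and 251 CPM. Strand was not known for the counting, so reads shared by adjoining genes cannot be told apart.

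**Figure D3:**
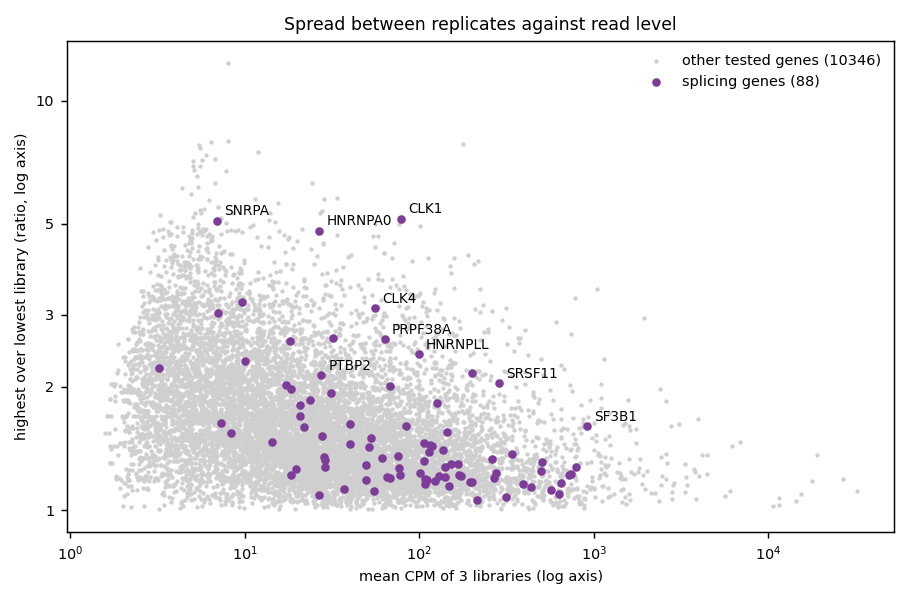
Ratio of the highest to the lowest library against mean CPM, both on log axes, for 88 splicing genes (purple) and the other 10346 tested genes (grey). CLK1 at 5.15 and HNRNPA0 at 4.82 lie near the upper edge of genes at their level, and most splicing genes lie below 2.

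A ratio of 2 or more between the highest and the lowest library was seen in 17 of 88 members, or 19.3%, with a background of 24.6%. Among members at 100 CPM or more it was seen in 2 of 42, SRSF1 and SRSF11, with a background of 8.72%. Of the 17 genes, 9 were highest in replicate 1, and they were the 7 named above with SRSF1 and TRA2B. The other 8 were lowest in replicate 1, namely SNRPA, U2AF2, U2AF1, PRPF40B, SF3A1, PRPF31, SF3A2 and SNRPD3. Replicate 1 was 1.5-fold or more above both other libraries in 9 members (background 9.36%) and 1.5-fold or more below both in 8 (background 11.7%), so the members as a whole were near the background in both directions.

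The direction differed by role. Taking replicate 1 minus the mean of the other libraries on the log2(CPM + 0.5) scale, the median was 0.34 for the 7 measured kinases and 0.26 for the 12 SR genes. It was -0.28 for the 13 U2 genes, -0.35 for the 7 Sm genes and -0.60 for the 3 U1 snRNP genes. The 13 tri-snRNP and PRPF genes had -0.21, among them PRPF39, a U1-associated factor, at 0.39. The hnRNP genes had 0.06, the 7 SRRM and RBM genes -0.17, the 3 measured PTBP and MBNL genes 0.18 and the 3 minor spliceosome genes -0.45. Of the measured kinases only 4 of 7 were above 0, and CLK3 was at -0.71. The median over all tested genes was -0.01 and over those at 100 CPM or more 0.10. SR genes above 0 numbered 10 of 12, and U2 genes above 0 numbered 2 of 13, SF3B1 and SF3B5. The background was 5165 of all 10434 tested genes above 0, and 1027 of the 1698 at 100 CPM or more. Differences between roles were described and not tested.

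**Figure D4:**
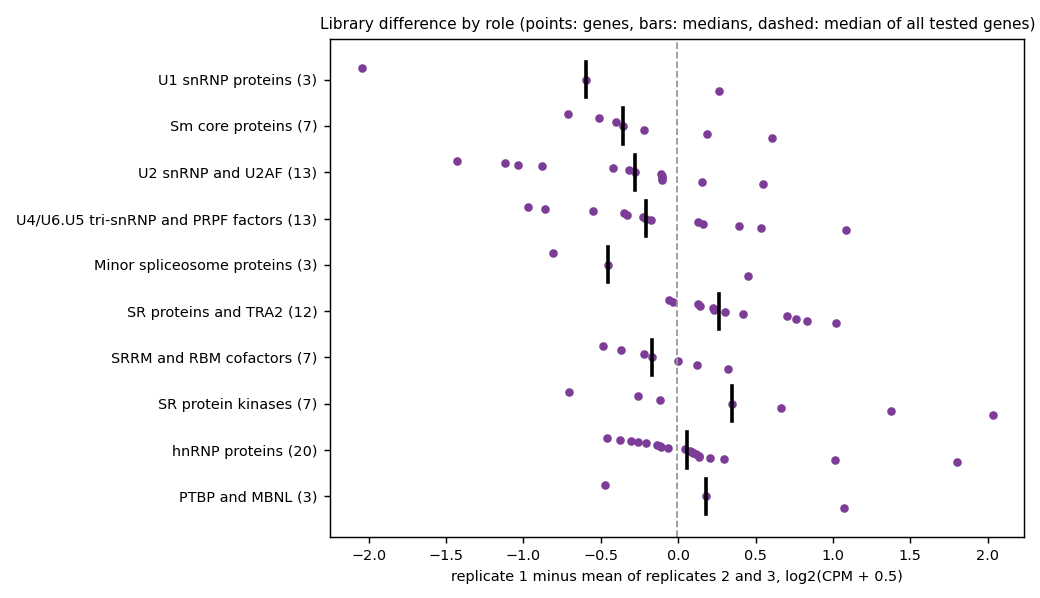
Log2(CPM + 0.5) in replicate 1 minus the mean of replicates 2 and 3 for each measured gene (points), with the median of each role (black bars) and of all tested genes (dashed line). SR genes have a median of 0.26 and kinases of 0.34, with 4 of 7 kinases above 0. The snRNP and PRPF roles and the SRRM and RBM genes have medians below 0.

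Ratios of related genes within a library do not depend on library scaling, and a change of such a ratio between libraries does not depend on gene length. Of 27 planned pairs, 23 had both genes in the table. With 3 replicates an exact sign-flip permutation reaches no p lower than 0.25, and ratios are therefore given by value and direction. The ratio of CLK1 to CLK2 changed most, with log2 values of 1.39, 0.17 and -0.77 in replicates 1 to 3. Its mean of 0.27 became -0.30 without replicate 1. CLK1 to CLK4 gave 0.72, 0.13 and 0.00. CLK2 to CLK3 gave 2.02, 0.93 and 0.99, and SRPK1 to SRPK2 0.14, 1.14 and 0.99.

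Other pairs kept nearly the same balance in all libraries. HNRNPH1 to HNRNPF had a log2 ratio of 2.31 ± 0.07 (SD, n = 3), SRRM2 to SRRM1 2.00 ± 0.08, SRSF5 to SRSF6 -1.60 ± 0.11, SRSF3 to SRSF7 -0.46 ± 0.14 and HNRNPD to HNRNPDL -0.35 ± 0.15. HNRNPD and HNRNPDL are coding neighbours in the RefSeq table. HNRNPU to HNRNPUL1 had 0.75 ± 0.18 and HNRNPA2B1 to HNRNPA3 2.52 ± 0.21. HNRNPA2B1 to HNRNPA1 was -0.29, -0.33 and 0.12, and U2AF2 to U2AF1 was -0.38, -0.02 and 0.06, so neither pair had 1 direction. Wider ranges were seen for HNRNPL to HNRNPLL (-0.27, 0.47 and 1.23), SRSF1 to SRSF9 (2.47, 2.15 and 1.21) and SF3B1 to SF3B3 (3.30, 2.89 and 2.39). The remaining pairs each kept 1 sign in the 3 libraries. HNRNPH1 to HNRNPH2 had 3.49 ± 0.27, RBM5 to RBM10 2.96 ± 0.33, SRSF4 to SRSF6 -2.14 ± 0.39, TRA2B to TRA2A -0.79 ± 0.37 and MBNL1 to MBNL2 -0.49 ± 0.39.

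**Figure D5:**
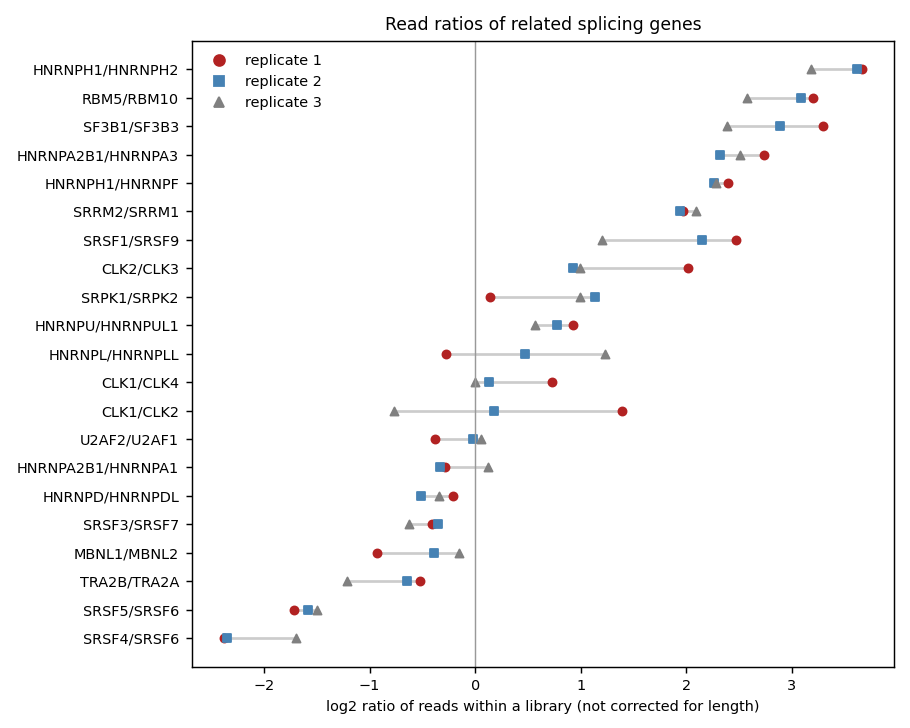
Log2 ratio of reads of 21 gene pairs within replicates 1 to 3 (points), not corrected for length, with a grey line over the range. CLK1 to CLK2 spans from -0.77 to 1.39, the widest range of these pairs, and HNRNPH1 to HNRNPF stays between 2.27 and 2.39.

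Other genes of the splicing pathway were as widely transcribed as the members, apart from regulators restricted to particular tissues. Over all listed genes 34.6% were measured, the background for the counts below. All 14 genes for assembly of the Sm ring were measured, led by STRAP (112 ± 31.3 CPM, n = 3), DDX20 (80.2 ± 9.27) and TGS1 (50.5 ± 2.06). All 9 LSm and U6 genes were measured, led by LARP7 (149 ± 24.4), LSM6 (41.5 ± 8.65) and LSM8 (40.3 ± 9.70). Of the helicases and recruited proteins 34 of 34 were measured, led by DHX15 (170.4 ± 82.4), a helicase that takes spliceosomes apart, CDC5L (149.7 ± 16.9) and LUC7L3 (148 ± 5.80). DHX15 had 252, 172 and 87.2 CPM, highest in replicate 1 (edgeR, adjusted p = 0.586). All 19 speckle proteins and further SR kinases were measured, with BCLAF1 at 410 ± 32.0, SON at 403 ± 23.1 and PNN at 264 ± 15.1. In the 4 lists just named and the 29 broad regulators, all of them tested, 0 genes passed the test of spread in edgeR. The background was 0.0192% of tested genes, so 0 calls say little about these lists. DHX15 was the 1 gene at an unadjusted value under 0.05, where the background was 5.24%.

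All 29 broad regulators of alternative splicing with a row were measured, led by NONO (459 ± 8.34 CPM, n = 3), MATR3 (380 ± 84.1) and PCBP2 (348 ± 19.3). Of the tissue-restricted regulators 1 of 18 was measured (background 34.6%), KHDRBS2, at 9.74, 4.63 and 3.10 CPM. RBM38 had 14, 10 and 3 reads. ESRP1 and ESRP2, which set epithelial splicing, had 7, 2 and 5 and 0, 2 and 8 reads. NOVA2, ELAVL3, ELAVL4, RBFOX3, SRRM3, SRRM4, CELF3, CELF4 and A1CF, mostly genes of neurons, had 0 reads throughout. If reads could be assigned to them, this leaves room for at most 0.605 CPM in the shallowest library. The broad regulator RBFOX2 stood at 156 ± 30.7 CPM, against 0, 1 and 0 reads of its relative RBFOX1.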

How the data were processed

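RNA of 3 libraries of serum-starved BFF116 cells was sequenced. Per the labels' protocols, cDNA was amplified with a single-primer isothermal method, 500 ng went into each library with 10 PCR cycles, and single reads of 100 bases were made. The submitters' processing notes name HTSeq 0.6.1, TopHat2 2.0.10 and bcl2fastq 2.18.0.12. Genome build, annotation and strand setting: not given in the sources used here. Values deposited by the authors are raw counts of reads for each gene, with no normalization. Rows that name no gene (reads in no gene 58.9% to 62.0%, several alignments 7.52% to 7.99%, several genes 0.235% to 0.253%) stayed out of library sizes and tests.

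From these counts edgeR 4.0.16 (R 4.3.3) gave CPM values with TMM factors of 0.978, 1.02 and 0.998. Log2 levels are log2(CPM + 0.5). Spread was tested where each library had at least 10 counts, with trended dispersion and a Pearson statistic (chi-square, 2 degrees of freedom), adjusted by Benjamini-Hochberg over 10434 genes. The test was tried on simulated data. Named genes were all kinases, the highest and lowest of each role, members of pairs, members below 1 CPM and the most variable. Levels per coding length were planned, but no transcript or protein lengths were used here, so reads replaced them in this rule. RefSeq names (ARS-UCD2.0) matched 90 of 90 members and served only for names and neighbours. Members, roles and lists were chosen with earlier results of these data known. Alternatives covered scaling (total counts, DESeq2 1.42.0 size factors), filters, pseudocounts, dispersion and left-out libraries.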

Additional observations from a re-analysis of the deposited data

How the results depend on the processing

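Over 35 results and 188 alternatives, 173 values were labelled the same, 9 moved, 4 became weaker and 2 reversed. The same meant a shift smaller than the SD between libraries, a count within 1.5-fold, or an adjusted p on the same side of 0.05. A result with a wide spread passes this easily. The mean of CLK1, 78.3 ± 68.8 CPM (SD, n = 3), was 38.9 without replicate 1 and was labelled the same. The members' share of reads, 1.39% ± 0.0539, was 2.16% with the 100 most abundant genes left out of numerator and denominator. The number of members called more variable than the trend, 1, was 0 in edgeR with a common dispersion (6 at an unadjusted value under 0.05) and 0 without replicate 1, 2 or 3 (2, 6 and 6 unadjusted), and the adjusted p of CLK1 (0.0106) was then 0.0764 and 0.602 to 1.00. With the other settings of scaling, filter and statistic it ranged from 0.00833 to 0.0203. The number of all genes called was 2, and it was 5 with DESeq2 size factors or with 50 counts in every library, 15 with the deviance statistic, and 6, 0 and 0 without replicates 1, 2 and 3. The log2 ratio of CLK1 to CLK2, 0.27, was -0.30 without replicate 1 and at most 0.78 without replicate 3. That of U2AF2 to U2AF1, -0.11, was 0.017 without replicate 1 and -0.20 without replicate 3. With pseudocounts of 0.1 and 1, SRPK2 to SRPK3 (6.78) was 8.19 and 6.03, and MBNL2 to MBNL3 (8.53) was 10.5 and 7.59, since the denominators had 8 and 1 reads. Chosen after seeing the data, the count of SR genes highest in replicate 1 (10) was 9 with total counts, and 10 and 12 without replicates 2 and 3. The count of U2 genes lowest in replicate 1 (9) was 9 or 10 in these settings. Leaving out replicate 2 or 3 cannot lower either count, so those settings, though labelled the same, do not check them. Planned values per coding length and pairs with PTBP1, SRSF12 and SNRPN were not run. No paired analysis was possible because the series has 1 group. With 3 libraries, depth limits U2AF1, U2AF2, SNRPA, SF3A2, PRPF40B, SNRNP35 and SNRPB, which rest on 16 to 98 reads per library.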
